A study of Mus musculus with 12 samples.

Results

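The measurement described here is the effect of blocking glycogen synthase kinase 3 (GSK3) while the liver X receptors (LXR) were activated, in neurospheres grown from the ventral midbrain. The embryos were mice of the CD-1 strain at stage E11.5. Its members are 6 of the 12 RNA-seq libraries in the series, chosen by their titles: 3 of cultures given the LXR agonist GW3965 together with CT99021, a GSK3 inhibitor also called CHIR99021, and 3 of cultures given GW3965 without it. Neurospheres are floating balls of dividing neural progenitors and the cells they form. They were grown for 3 days and then treated for 5 h in N2 medium. The other groups, with 3 libraries each, received the vehicle DMSO (control) or CT99021 without GW3965. Every group came from CD-1 embryos of the same stage, and no genotype other than this strain is named in the labels. Both groups compared carried GW3965, so the agonist's own effect is not part of the difference between them. The replicate numbers 1, 2 and 3 of the titles pair the libraries of the groups.

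GSK3 phosphorylates beta-catenin inside a complex built on Axin and Apc and so marks it for destruction. When Wnt proteins or an inhibitor stop the kinase, beta-catenin accumulates, joins the Tcf and Lef factors on DNA and switches on target genes, many of which restrain the pathway. GSK3 also acts in insulin signalling and on the Myc proteins, while LXR controls sterol export and fatty acid synthesis, and both LXR and Wnt signalling are known to act in the formation of midbrain dopaminergic neurons.

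The 6 libraries held 9646424 to 21086005 counts over gene rows. Of 23965 gene rows, 15608 had enough counts to be tested. The neural genes Sox2, Nes, Otx2, En1 and Tubb3 were present in all 6, whereas Th, the enzyme that marks dopaminergic neurons, stayed under 2 CPM, the read count scaled to library size. The spread common to all genes, as a biological coefficient of variation, fell from 33.4% to 12.7% when the replicate number entered the model. GW3965+CT99021 replicate 2 also stood with the 4 libraries numbered 3, apart from the other 7, in 205 genes by at least 1.5 times, against at most 27 genes for any other library put in its place. Counts are therefore also given without that library. Whether replicates were grown separately is not said in the labels, so the p-values here reflect variation among the libraries themselves, technical variation included.

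With CT99021 added to GW3965, 1843 genes (11.8% of those tested) rose and 1375 (8.81%) fell, together 3218 or 20.6%, at an adjusted p under 0.05 in edgeR's quasi-likelihood test with the replicate number as a block. Most differences were small, with a median log2 fold change of 0.41 among the genes that rose, -0.58 among those that fell and 0.01 over all tested genes. A change of at least 1 log2 unit was seen in 125 genes that rose and 235 that fell. The sign was the same in all 3 replicate pairs for 3212 of the 3218, and the values of the groups did not overlap for 1469. Across all tested genes, 8.18% were higher and 7.20% lower without overlap. The number called depended on single libraries. It was 1396 without GW3965 replicate 1, 1484 without GW3965 replicate 2, 2078 without GW3965+CT99021 replicate 1 and 1625 (10.3% of 15853 tested) without GW3965+CT99021 replicate 2, and 1581 of these last were also among the 3218. Without the replicate block 12 genes passed. Single genes named below as rising or falling also passed with any 1 of the 12 libraries left out, unless libraries are named whose removal ended the call.

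**Figure D1:**
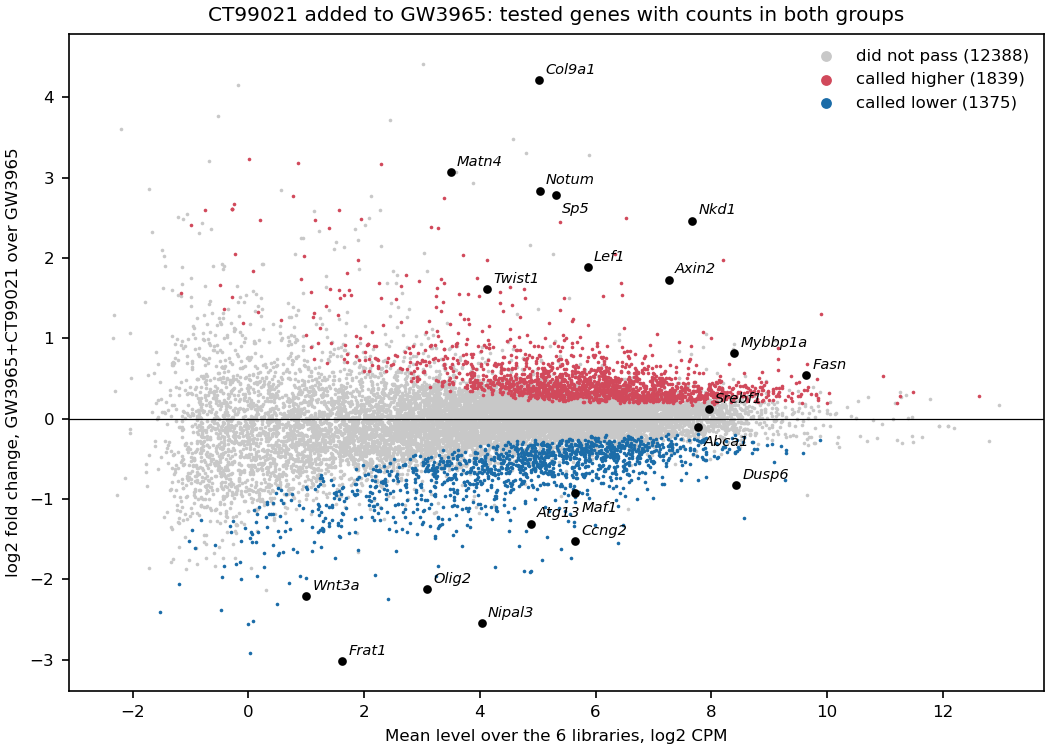
Difference between GW3965+CT99021 and GW3965 (log2 fold change, vertical) against the mean level over the 6 libraries (log2 CPM, horizontal), 1 point for each of 15602 tested genes; 6 genes at 0 counts throughout a group are not drawn. Red points rose and blue points fell in the edgeR test, grey points did not pass, and black points are genes named in the text. Notum, Nkd1, Sp5 and Axin2 lie at the top among genes of moderate level, and Frat1 and Nipal3 at the bottom.

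Negative regulators and other targets of Wnt signalling rose. Of 22 tested genes on a list of Wnt feedback and target genes, 13 rose and 1, Myc, fell, and the median log2 fold change was 0.74. Without GW3965+CT99021 replicate 2, 10 rose and none fell by the same edgeR test, in which 5.82% and 4.43% of all genes rose and fell. Notum (chromosome 11, position 120515102, minus strand, in the mm9 build as the table lists it) encodes a secreted enzyme that strips the lipid from Wnt proteins. It measured 6.49, 15.9 and 1.31 CPM in GW3965 replicates 1, 2 and 3 and 54.2, 111 and 8.33 CPM in those with CT99021. The groups overlapped, because both replicate 3 libraries were low, but each library with CT99021 was far above its own pair. The increase was 7.16-fold (log2 fold change 2.84 ± 0.17, SE, n = 3 pairs, edgeR adjusted p = 2.8e-05).

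Nkd1 (chromosome 8, position 91045142, plus strand), an inhibitor of the Wnt signal transducer Dishevelled, measured 62.8, 89.5 and 24.9 CPM in GW3965 replicates 1, 2 and 3 and 439.9, 506 and 98.1 CPM in those with CT99021. Every library with CT99021 exceeded every library without it, with the smallest gap in replicate 3. The log2 fold change was 2.47 ± 0.20 (edgeR adjusted p = 0.00017), and its relative Nkd2 rose by 1.64 ± 0.20. Axin2 (chromosome 11, position 108781562, plus strand), the inducible scaffold of the destruction complex, measured 72.5, 110.2 and 27.2 CPM in GW3965 replicates 1, 2 and 3 and 250.1, 381 and 82.8 CPM in those with CT99021. It rose 3.32-fold in the fit, 1.73 ± 0.14 on the log2 scale (edgeR adjusted p = 0.00014), and overlapped between groups only through the low replicate 3 library with CT99021.

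Sp5 (chromosome 2, position 70312879, plus strand), a zinc-finger transcription factor, measured 11.51, 14.3 and 2.72 CPM in GW3965 replicates 1, 2 and 3 and 91.4, 104 and 13.5 CPM in those with CT99021. The log2 fold change was 2.79 ± 0.38 (edgeR adjusted p = 0.0016), and the replicate 3 pair was again the lowest in both groups. Tnfrsf19 (chromosome 14, position 61582670, minus strand), a receptor of the tumour necrosis factor family, measured 101, 193 and 55.5 CPM in GW3965 replicates 1, 2 and 3 and 505, 753 and 165 CPM in those with CT99021, a rise of 1.98 ± 0.23 log2 units (edgeR adjusted p = 0.0009). Its values overlapped through replicate 3 in the same way.

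The upstream sequences of these genes are shown because Sp5 and Tnfrsf19 are, in order of p, the first genes of the list that rose and whose promoter window holds a Tcf/Lef core. The core was searched as CTTTG followed by AA, AT, TA or TT, on either strand, in RefSeq windows of build GRCm38.p6 that run from 250 bases before to 50 bases after a gene's start. Each line gives the 250 bases before the start, 5′ to 3′ on the gene's strand, with the cores in capitals (a core on the opposite strand reads as its reverse complement).
Sp5, chr2:70474673-70474922, plus strand: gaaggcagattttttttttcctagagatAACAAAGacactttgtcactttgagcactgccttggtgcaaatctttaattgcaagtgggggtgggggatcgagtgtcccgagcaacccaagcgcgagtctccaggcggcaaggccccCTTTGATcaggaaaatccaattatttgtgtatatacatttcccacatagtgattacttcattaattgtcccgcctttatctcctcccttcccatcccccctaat
Tnfrsf19, chr14:61037988-61038237, minus strand: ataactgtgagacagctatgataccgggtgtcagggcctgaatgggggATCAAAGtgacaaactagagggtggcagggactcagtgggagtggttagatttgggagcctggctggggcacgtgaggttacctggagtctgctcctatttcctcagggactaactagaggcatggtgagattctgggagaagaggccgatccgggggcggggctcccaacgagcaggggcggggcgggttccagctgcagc
In Sp5 the cores begin 222 and 104 bases before the start, and in Tnfrsf19 the core begins 202 bases before it. Such a core occurs in 16.9% of all 32851 windows, so its presence describes these letters and shows no binding. Among the 11899 tested genes with a window the share was 14.2%. It was 13.6% for genes that rose and 15.5% for those that fell. Over the 36 lists it ran from 0% to 50%, the latter on the Wnt feedback list (6 of 12 windows). These shares were not tested, and windows were found for 76.2% of the tested genes.

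Further brakes on the pathway act at the cell surface. Znrf3, a ubiquitin ligase that removes Frizzled receptors, measured 53.1, 72.5 and 38.2 CPM in GW3965 replicates 1, 2 and 3 and 90.6, 109.6 and 61.9 CPM in those with CT99021, which gives 0.69 ± 0.08 log2 units (edgeR adjusted p = 0.00067). Rnf43, its relative, rose by 1.51 ± 0.36, but it did not pass without GW3965+CT99021 replicate 1 or GW3965 replicate 1 (highest adjusted p = 0.057). Dkk4, a secreted inhibitor of the Lrp co-receptors, had 0 counts in all 3 GW3965 libraries and 12, 24 and 20 counts in GW3965+CT99021 replicates 1, 2 and 3. Set against 3 counts over the whole group as a floor the ratio was 19.1, and the lower limit of its exact 95% interval, which covers counting error only, put it at least 15.01-fold higher.

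Among the remaining Wnt targets, Cdh3, which encodes P-cadherin, measured 0.783, 0.807 and 0.704 CPM in GW3965 replicates 1, 2 and 3 and 3.24, 6.21 and 5.95 CPM in those with CT99021. It was low in both groups, the groups did not overlap, and the log2 fold change was 2.60 ± 0.46 (edgeR adjusted p = 0.0046). Bmp4, a secreted growth factor, rose by 1.17 ± 0.29 and did not pass without GW3965+CT99021 replicate 1 or 2 or GW3965 replicate 1 or 2 (highest adjusted p = 0.087). Myc, a growth-promoting transcription factor often listed as a Wnt target, measured 76.7, 62.3 and 52.5 CPM in GW3965 replicates 1, 2 and 3 and 46.7, 35.3 and 40.9 CPM in those with CT99021 and fell by 0.62 on the log2 scale (edgeR adjusted p = 0.016). The fall of Myc was not called without GW3965+CT99021 replicate 1 or 2 or GW3965 replicate 1 or 2 (highest adjusted p = 0.075). Ccnd1, which encodes the cell-cycle protein cyclin D1, rose by 0.51 ± 0.14 and did not pass without GW3965+CT99021 replicate 1 or 2 or GW3965 replicate 2 or 3 (highest adjusted p = 0.098).

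**Figure D2:**
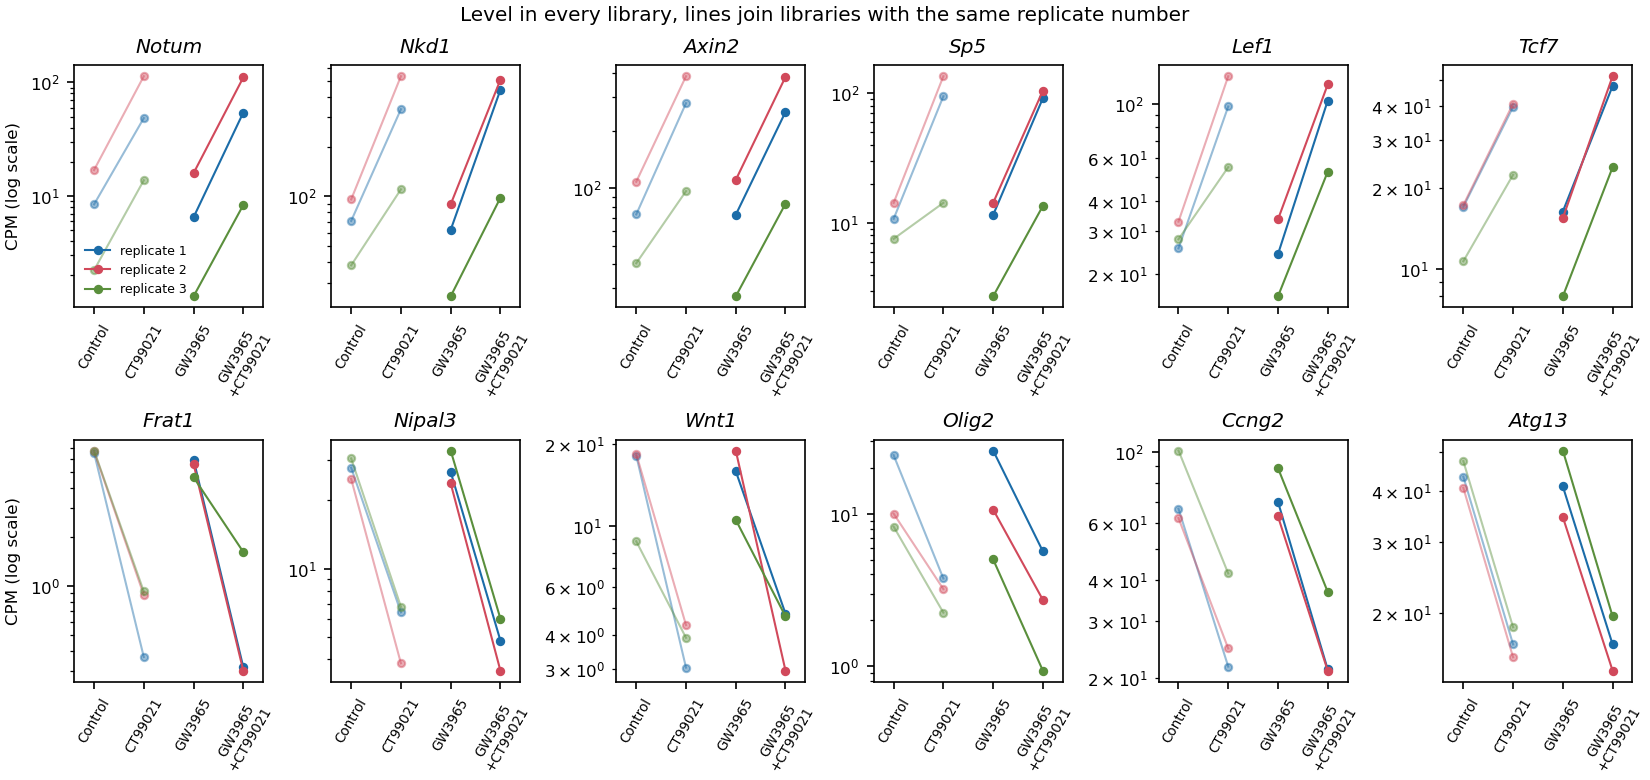
CPM of 12 genes in all 12 libraries (log scale, vertical; groups horizontal), with a line joining the libraries of 1 replicate number, paler for control and CT99021. In the upper row all 3 lines from GW3965 to GW3965+CT99021 rise and replicate 3 (green) starts lowest; in the lower row all 3 fall.

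The DNA-binding partners of beta-catenin moved apart. Lef1 (chromosome 3, position 130813288, plus strand) measured 24.1, 33.5 and 16.2 CPM in GW3965 replicates 1, 2 and 3 and 103, 119.7 and 52.5 CPM in those with CT99021, without overlap, and rose 3.69-fold (1.88 ± 0.19 on the log2 scale, edgeR adjusted p = 0.00044). Tcf7 (chromosome 11, position 52066105, minus strand) measured 16.3, 15.5 and 7.95 CPM in GW3965 replicates 1, 2 and 3 and 47.5, 51.6 and 23.8 CPM in those with CT99021, also without overlap, and rose by 1.61 ± 0.10 (edgeR adjusted p = 4.2e-05). Their relative Tcf7l2 went the other way, with 249.6, 181 and 109.5 CPM in GW3965 replicates 1, 2 and 3 and 167, 131 and 78.4 CPM in those with CT99021, some overlap and a log2 fold change of -0.51 ± 0.10 (edgeR adjusted p = 0.0073). Tle4, a Groucho co-repressor that binds Tcf factors, changed by -0.42 ± 0.08. Of 14 tested genes on the list of Tcf/Lef factors and partners, 4 rose and 4 fell, with a median of 0.09 (0.03 to 0.11 with 1 library left out). Both counts were 2 without GW3965+CT99021 replicate 2 and without GW3965 replicate 2. Without GW3965 replicate 1 and without GW3965+CT99021 replicate 1, 3 rose and 2 fell.

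The list of the destruction complex also holds the Frat genes, whose products bind GSK3 but are not parts of the complex. On this list 1 of 18 tested genes rose and 3 fell, together 22.2% beside 20.6% of all genes, with a median of -0.04. The transcripts of the kinases were measured, although an inhibitor of their activity need not alter them. Gsk3b was at 319, 337 and 315 CPM in GW3965 replicates 1, 2 and 3 and 370.4, 377 and 293 CPM in those with CT99021, and its log2 fold change of 0.09 ± 0.08 did not pass (edgeR adjusted p = 0.45). Gsk3a (0.16, adjusted p = 0.11) and Ctnnb1, the beta-catenin gene (0.08, adjusted p = 0.48), did not pass either in that test. The largest fall among called genes at a mean of 1 CPM or more was that of Frat1 (chromosome 19, position 41904359, plus strand), whose product binds GSK3 and keeps it from Axin. Frat1 measured 5.94, 5.58 and 4.63 CPM in GW3965 replicates 1, 2 and 3 and 0.319, 0.303 and 1.61 CPM in those with CT99021, with no overlap, and fell 8.10-fold (log2 fold change -3.02 ± 0.46, edgeR adjusted p = 0.0025). Its neighbour and relative Frat2 (chromosome 19, position 41920464, minus strand) measured 6.58, 7.39 and 11.97 CPM in GW3965 replicates 1, 2 and 3 and 1.38, 2.35 and 5.61 CPM in those with CT99021 and changed by -1.64 ± 0.24. Axin1, the constitutive scaffold, rose by 0.49 ± 0.09.

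Of 18 tested Wnt ligands, 3 fell and none rose in edgeR, 16.7% beside 20.6% called among all genes. The counts were the same when GW3965+CT99021 replicate 2 was left out. Without control replicate 1 or CT99021 replicate 1 or 3, 1 rose, and without control replicate 3, 2 rose. At an unadjusted p under 0.05, 4 were higher, and DESeq2 and limma-voom called 1 and 2 higher. Wnt1, the signal of the midbrain-hindbrain boundary and the dopaminergic progenitor zone, measured 15.9, 19.0 and 10.6 CPM in GW3965 replicates 1, 2 and 3 and 4.78, 2.96 and 4.67 CPM in those with CT99021. The groups did not overlap, and the fall was 3.57-fold (log2 fold change -1.83 ± 0.29, edgeR adjusted p = 0.0029). Wnt3a measured 4.37, 3.90 and 1.61 CPM in GW3965 replicates 1, 2 and 3 and 0.797, 0.606 and 0.68 CPM in those with CT99021 and changed by -2.21 ± 0.34 (edgeR adjusted p = 0.0025), from a level that was already low. Wnt7a changed by -1.31 ± 0.21.

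On the list of Wnt receptors and secreted modulators, 6 of 28 tested genes rose and 2 fell, together 28.6% beside 20.6% of all genes. The median was 0.20 (0.04 to 0.26 with 1 library left out). The number that rose was 4 without GW3965+CT99021 replicate 2 or GW3965 replicate 2, and 3 without GW3965 replicate 1. The number that fell was 4 without GW3965 replicate 3 and 5 without CT99021 replicate 3. Fzd10, a Frizzled receptor, measured 32.4, 43.9 and 11.2 CPM in GW3965 replicates 1, 2 and 3 and 142, 220.0 and 32.1 CPM in those with CT99021. It rose 4.13-fold (2.05 ± 0.24 on the log2 scale, edgeR adjusted p = 0.00091) and overlapped through replicate 3. The receptor tyrosine kinases Ror1 and Ror2, which bind Wnt5a, rose by 1.53 ± 0.24 and 1.51 ± 0.24. Sostdc1, a secreted antagonist, changed by -0.98 ± 0.17 and Rspo2, an R-spondin that strengthens the signal, by -0.92 ± 0.17.

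CT99021 moved individual genes on the list of LXR targets in both directions. Abca1, the cholesterol exporter and best known LXR target, was at 39.1, 27.4 and 113 CPM in control replicates 1, 2 and 3 and at 106, 123 and 476 CPM in those with GW3965. With CT99021 as well, its log2 fold change of -0.10 ± 0.16 did not pass (edgeR adjusted p = 0.69). Abcg1, another exporter, measured 56.5, 42.9 and 57.3 CPM in GW3965 replicates 1, 2 and 3 and 32.4, 23.0 and 23.1 CPM in those with CT99021. The groups did not overlap, and it fell 2.03-fold (log2 fold change -1.02 ± 0.22, edgeR adjusted p = 0.011). Abca7 changed by -0.92 ± 0.13 and Arl4a, a small GTPase, by 0.84 ± 0.13. Whether these genes respond to GW3965 itself is not reported here. Of 21 tested genes on the list 4 rose and 4 fell. Their median of 0.11 turned to -0.06 and -0.01 without GW3965+CT99021 replicate 2 or GW3965 replicate 2, was 0.01 without GW3965+CT99021 replicate 1 and -0.02 without the replicate block. Those that rose numbered 2 without GW3965 replicate 1, and those that fell numbered 2 without any 1 of the 3 GW3965+CT99021 libraries. These counts stand beside 11.8% rising and 8.81% falling among all genes.

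Enzymes of fatty acid synthesis rose more often than they fell. Srebf1, the LXR target that encodes the master regulator of these enzymes, measured 201, 267 and 246 CPM in GW3965 replicates 1, 2 and 3 and 231, 286 and 256 CPM in those with CT99021, with overlap and no call (0.12 ± 0.09, edgeR adjusted p = 0.37). Fasn, the fatty acid synthase, measured 638, 709.8 and 581 CPM in GW3965 replicates 1, 2 and 3 and 975, 1167 and 713 CPM in those with CT99021, without overlap, and rose by 0.54 ± 0.11 log2 units (edgeR adjusted p = 0.0071). Scd1, which desaturates the product, measured 129, 156 and 174 CPM in GW3965 replicates 1, 2 and 3 and 196, 264 and 249.2 CPM in those with CT99021 and rose by 0.63 ± 0.10 (edgeR adjusted p = 0.0024). Acaca and Elovl1, for the carboxylase that starts the pathway and an elongase, rose by 0.50 ± 0.08 and 0.66 ± 0.12. Lpin1, a phosphatidate phosphatase, fell 2.65-fold, from 31.8, 30.8 and 57.8 CPM in GW3965 replicates 1, 2 and 3 and 9.29, 13.8 and 23.0 CPM in those with CT99021 (edgeR adjusted p = 0.0013). In all, 7 of 20 tested genes rose and 1 fell, with a median of 0.13. The 7 became 4 without any 1 of the GW3965+CT99021 libraries and 3 without GW3965 replicate 1 or 2. On the cholesterol synthesis list 5 of 25 rose and none fell, 20% beside 20.6% called among all genes. At an unadjusted p under 0.05, 1 was lower, and DESeq2 and limma-voom called none lower. None was called in edgeR without GW3965+CT99021 replicate 2. Only 1 was called without GW3965 replicate 1 or 2, 2 without GW3965+CT99021 replicate 1 and 4 without GW3965 replicate 3, where 3 rose and 1 fell, while 8 rose without control replicate 3 or GW3965+CT99021 replicate 3.

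Genes for making ribosomes formed the list with the highest share of calls. Of 37 tested, 35 rose and none fell, with a median log2 fold change of 0.57, against 0.01 over all tested genes. The list's median was 0.54, 0.59 and 0.58 in replicate pairs 1, 2 and 3. Without GW3965+CT99021 replicate 2, 32 rose, and 30 to 35 rose without any 1 of the 12 libraries. Without replicate 2 of every group 3 rose, and without the replicate block none. The genes that did not pass were Nop10 and Ubtf.

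Mybbp1a, which encodes a nucleolar protein that binds Myb, measured 259, 267 and 202 CPM in GW3965 replicates 1, 2 and 3 and 437, 515 and 338 CPM in those with CT99021. The groups did not overlap, and the log2 fold change was 0.81 ± 0.08 (edgeR adjusted p = 0.00036). Polr1a, the largest subunit of RNA polymerase I, which transcribes the ribosomal RNA genes, measured 82.7, 103 and 70.0 CPM in GW3965 replicates 1, 2 and 3 and 136, 173 and 107 CPM in those with CT99021 and rose by 0.70 ± 0.07 (edgeR adjusted p = 0.00033). Npm1, for the abundant nucleolar protein nucleophosmin, measured 557, 601 and 469 CPM in GW3965 replicates 1, 2 and 3 and 792, 845 and 710.3 CPM in those with CT99021 and rose by 0.53 ± 0.06. Each of these 3 was higher in every library with CT99021 than in every library without it. Nop2 and Rrp9, which process ribosomal RNA, rose by 0.90 ± 0.12 and 0.89 ± 0.13.

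RNA polymerase III, which makes transfer RNA and the smallest ribosomal RNA, showed a related picture. Its repressor Maf1 (chromosome 15, position 76181623, plus strand) measured 62.8, 63.1 and 71.9 CPM in GW3965 replicates 1, 2 and 3 and 37.1, 31.2 and 35.6 CPM in those with CT99021. There was no overlap, Maf1 fell 1.90-fold (-0.93 ± 0.09 on the log2 scale, edgeR adjusted p = 0.00033), and it was 1 of the 12 genes that passed without the replicate block. Polr3g, a subunit of the polymerase, measured 8.15, 9.68 and 6.94 CPM in GW3965 replicates 1, 2 and 3 and 13.9, 22.1 and 12.5 CPM in those with CT99021 and rose by 0.94 ± 0.12 (edgeR adjusted p = 0.0015). In this list of 21, 7 rose and 1, Maf1, fell. The 7 became 4 without GW3965+CT99021 replicate 2, GW3965 replicate 1 or GW3965 replicate 2.

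In the Myc network, 6 of 16 genes fell and 2 rose, together 50% beside 20.6% of all genes. The 6 became 4 without GW3965+CT99021 replicate 1 or 2 or GW3965 replicate 1, and 5 without GW3965 replicate 2. Without GW3965 replicate 3, 3 rose. Mycl1, a Myc relative, measured 92.7, 121 and 60.8 CPM in GW3965 replicates 1, 2 and 3 and 40.5, 43.6 and 24.2 CPM in those with CT99021, without overlap, and fell 2.51-fold (log2 fold change -1.33 ± 0.14, edgeR adjusted p = 0.00051). The antagonists of Myc fell as well, with log2 fold changes of -1.04 ± 0.11 for Mnt and -0.68 ± 0.07 for Mxi1. Odc1 and Cad, enzymes of polyamine and pyrimidine synthesis often used as Myc targets, rose by 0.45 ± 0.09 and 0.51 ± 0.10.

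Many autophagy genes fell. Of 38 tested, 13 fell and 1 rose, with a median of -0.20, and 10 fell without GW3965+CT99021 replicate 2. Atg13 (chromosome 2, position 91514768, minus strand), a part of the complex that starts autophagosomes, measured 41.2, 34.6 and 50.5 CPM in GW3965 replicates 1, 2 and 3 and 16.7, 14.4 and 19.6 CPM in those with CT99021. The groups lay far apart, and the log2 fold change was -1.31 ± 0.09 (edgeR adjusted p = 6.7e-05). Ulk1, the kinase of the same complex, measured 122, 110.2 and 108 CPM in GW3965 replicates 1, 2 and 3 and 78.0, 80.7 and 75.0 CPM in those with CT99021 and changed by -0.54 ± 0.07 (edgeR adjusted p = 0.0015). Nbr1, a receptor that brings cargo to autophagosomes, measured 161, 165 and 213 CPM in GW3965 replicates 1, 2 and 3 and 94.6, 89.0 and 125 CPM in those with CT99021, without overlap, and changed by -0.81 ± 0.06 (edgeR adjusted p = 0.00011). Wipi1 changed by -0.80 ± 0.14. On the lysosome list 11 of 50 rose and 2 fell, together 26% beside 20.6% of all genes, with a median of 0.11. The 11 became 2 without GW3965 replicate 1, 3 without GW3965 replicate 2, 6 without GW3965+CT99021 replicate 1 or 2 and 7 without control replicate 2. Npc2, a sterol carrier of the lysosome, rose by 0.43 ± 0.06, and the protease gene Ctsf changed by -0.77 ± 0.11.

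Insulin receptor signalling and FoxO genes fell in 11 of 32 cases and rose in 2, with a median of -0.10 (-0.12 to -0.02 with 1 library left out). The 11 became 7 without GW3965+CT99021 replicate 2 or GW3965 replicate 2. Ccng2 (chromosome 5, position 93696498, plus strand), a cyclin-like inhibitor of the cell cycle and a FoxO target, measured 69.9, 63.1 and 88.9 CPM in GW3965 replicates 1, 2 and 3 and 21.2, 21.1 and 36.9 CPM in those with CT99021. It fell 2.88-fold (log2 fold change -1.53 ± 0.10, edgeR adjusted p = 6.7e-05), with the replicate 3 library highest in each group and no overlap. Irs2, an adaptor of the insulin receptor, measured 90.6, 127 and 88.7 CPM in GW3965 replicates 1, 2 and 3 and 56.3, 56.9 and 51.7 CPM in those with CT99021 and changed by -0.87 ± 0.10 (edgeR adjusted p = 0.0009). Igf1r, the receptor for insulin-like growth factor, changed by -0.72 ± 0.08. Rptor and Akt2 were the members that rose, by 0.42 ± 0.09 and 0.42 ± 0.08.

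On the glycolysis list 8 of 24 genes rose and 1 fell, with a median of 0.26. The single decrease was not called without GW3965+CT99021 replicate 2 or GW3965 replicate 1 or 2. The 8 became 3 without GW3965 replicate 1 or 2, 4 without GW3965+CT99021 replicate 1 or 2 and 5 without GW3965 replicate 3. Slc16a1, a lactate transporter, measured 37.0, 34.8 and 28.1 CPM in GW3965 replicates 1, 2 and 3 and 63.4, 60.5 and 66.8 CPM in those with CT99021. It did not overlap between groups and rose by 0.94 ± 0.11 (edgeR adjusted p = 0.00095), and Ldha, lactate dehydrogenase, rose by 0.57 ± 0.12.

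Several genes of neural progenitors fell. Of 16 tested, 8 fell and none rose in edgeR, DESeq2 or limma-voom, with a median of -0.43, and 1 was higher at an unadjusted p under 0.05. The 8 became 5 without GW3965+CT99021 replicate 2 or 3 or GW3965 replicate 1, and 4 without GW3965 replicate 2. Sox1, a transcription factor of neural progenitors, measured 95.2, 150.4 and 45.7 CPM in GW3965 replicates 1, 2 and 3 and 63.7, 80.1 and 25.7 CPM in those with CT99021. The groups overlapped, each library with CT99021 was below its own pair, and the log2 fold change was -0.76 ± 0.09 (edgeR adjusted p = 0.00091). Sox3 measured 9.58, 13.9 and 7.95 CPM in GW3965 replicates 1, 2 and 3 and 6.001, 6.44 and 3.57 CPM in those with CT99021, without overlap, and changed by -0.96 ± 0.17 (edgeR adjusted p = 0.0046). Sox2 changed by -0.31 ± 0.07 and did not pass without GW3965+CT99021 replicate 2 or GW3965 replicate 2 (highest adjusted p = 0.075). In bulk RNA fewer cells of a type and less RNA per cell cannot be told apart.

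Factors that pattern the ventral neural tube fell in several cases. Olig2 (chromosome 16, position 91225694, plus strand), a factor of motor neuron and oligodendrocyte progenitors, measured 26.1, 10.7 and 5.03 CPM in GW3965 replicates 1, 2 and 3 and 5.68, 2.73 and 0.935 CPM in those with CT99021. Replicate 1 was highest and replicate 3 lowest in each group, so the groups overlapped, while every pair fell. The fall was 4.34-fold (log2 fold change -2.12 ± 0.29, edgeR adjusted p = 0.0016). Its neighbour Olig1 (chromosome 16, position 91269913, plus strand) measured 31.5, 10.5 and 3.32 CPM in GW3965 replicates 1, 2 and 3 and 8.82, 1.97 and 0.85 CPM in those with CT99021 and changed by -1.96 ± 0.43, but was not called without GW3965 replicate 1 (highest adjusted p = 0.088). Nkx2-2, which marks progenitors next to the floor plate, measured 11.4, 14.1 and 10.4 CPM in GW3965 replicates 1, 2 and 3 and 5.89, 5.31 and 5.35 CPM in those with CT99021. It did not overlap and changed by -1.11 ± 0.15 (edgeR adjusted p = 0.0017). In this list, which includes the Sonic hedgehog pathway, 6 of 20 genes fell and 3 rose. The 6 became 4 without GW3965+CT99021 replicate 2 or GW3965 replicate 2 and 2 without GW3965 replicate 1, and the 3 became 1 without any of these and none without GW3965+CT99021 replicate 1.

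Genes of the dopaminergic lineage gave few stable calls. Foxa2 and Lmx1a, factors of the floor plate, measured 7.73, 7.19 and 37.2 CPM in GW3965 replicates 1, 2 and 3 and 6.48, 4.70 and 26.9 CPM in those with CT99021 for Foxa2 and 11.6, 13.1 and 46.8 CPM in GW3965 replicates 1, 2 and 3 and 11.4, 16.1 and 36.8 CPM in those with CT99021 for Lmx1a, and in both groups replicate 3 was by far the highest. Foxa2 changed by -0.43 ± 0.13 (edgeR adjusted p = 0.04) and was not called without Control replicate 1 or 3, CT99021 replicate 2, GW3965+CT99021 replicate 1, 2 or 3 or GW3965 replicate 1, 2 or 3 (highest adjusted p = 0.13). Lmx1a (-0.04 ± 0.21, adjusted p = 0.91), Nr4a2, the dopaminergic factor Nurr1 (-0.12 ± 0.17, adjusted p = 0.64), and Th (-0.92 ± 0.35, adjusted p = 0.088) did not pass in edgeR. Lmx1b, which measured 16.2, 17.7 and 24.4 CPM in GW3965 replicates 1, 2 and 3 and 9.24, 11.6 and 13.7 CPM in those with CT99021, fell without overlap (log2 fold change -0.75 ± 0.11, edgeR adjusted p = 0.0021). On the list of dopaminergic neurons 5 of 15 fell and none rose in edgeR, DESeq2 or limma-voom, with 1 higher at an unadjusted p under 0.05. None was called without GW3965+CT99021 replicate 2, GW3965+CT99021 replicate 3 or GW3965 replicate 2. The 5 became 1 without GW3965 replicate 1 and 3 without control replicate 1 or 2.

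On the list of midbrain and isthmus genes, the isthmus being the midbrain-hindbrain boundary, 4 of 21 tested fell and 1 rose, together 23.8% beside 20.6% of all genes. Dusp6 (chromosome 10, position 98725764, plus strand), a phosphatase that switches off ERK, measured 410.0, 537 and 378 CPM in GW3965 replicates 1, 2 and 3 and 259, 285 and 201 CPM in those with CT99021. The groups did not overlap, and Dusp6 fell 1.77-fold (log2 fold change -0.83 ± 0.07, edgeR adjusted p = 0.00026). Spry1, another feedback inhibitor, measured 205, 307 and 186 CPM in GW3965 replicates 1, 2 and 3 and 138, 189 and 109 CPM in those with CT99021, with slight overlap, and changed by -0.68 ± 0.07 (edgeR adjusted p = 0.00044). Etv5 changed by -0.53 ± 0.06 and Gbx2, a factor of the hindbrain side, by -1.12 ± 0.19. These were the 4 members that fell, and 4 fell without GW3965+CT99021 replicate 2.

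Proneural and neuronal genes mostly did not rise. Neurog2, a proneural factor of midbrain dopaminergic progenitors, was an exception. It measured 3.499, 6.18 and 2.82 CPM in GW3965 replicates 1, 2 and 3 and 9.72, 30.6 and 4.59 CPM in those with CT99021, highest in replicate 2 of each group and with overlap, and rose 3.10-fold (log2 fold change 1.63 ± 0.28, edgeR adjusted p = 0.0041). Of 13 tested proneural factors 2 rose and 3 fell, and 1 of each passed without GW3965+CT99021 replicate 2, GW3965 replicate 1 or GW3965 replicate 2. Without GW3965+CT99021 replicate 1, 1 rose and 2 fell. The pan-neuronal genes Myt1 and Elavl4, a transcription factor and an RNA-binding protein, changed by -0.82 ± 0.10 and -0.74 ± 0.12. Of 22 pan-neuronal genes 6 fell and 1 rose. The 6 became 4 without GW3965+CT99021 replicate 2, GW3965 replicate 1 or GW3965 replicate 2 and 3 without GW3965+CT99021 replicate 3.

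The calls in other gene groups of the developing midbrain were mostly decreases. In the Notch pathway 5 of 23 fell and none rose, 21.7% beside 20.6% called among all genes. Among the 5 were Numbl and Hey1 (-0.66 and -0.61 log2 units), an inhibitor of Notch and a target of it. Of genes of midbrain neurons that are not dopaminergic, 6 of 19 fell and none rose (31.6%). Lhx9, a factor of glutamatergic neurons, was at -0.63 and Gad2, which makes the transmitter GABA, at -0.43. Neither list had a member higher at an unadjusted p under 0.05, and DESeq2 and limma-voom called none higher. Floor plate and dopaminergic progenitor genes numbered 18, of which 5 fell and 1 rose (together 33.3%). The Notch count became 3 without GW3965+CT99021 replicate 2 or 3 or GW3965 replicate 1 or 2, and the count for other neurons 3 without GW3965 replicate 1 or any 1 of the GW3965+CT99021 libraries. The single increases on the floor plate, midbrain and isthmus, autophagy, pan-neuronal and astrocyte lists were each lost without GW3965+CT99021 replicate 1 or 2 or GW3965 replicate 1 or 2. On the floor plate, midbrain and isthmus, and autophagy lists they were also lost without control replicate 1, 2 or 3 and without some other libraries. The floor plate count of decreases became 2 without GW3965+CT99021 replicate 2 or 3 and 3 without GW3965 replicate 1 or 2.

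Cell-cycle, Hippo and stress genes were measured as further groups. The share called in either direction was 20.6% over all genes. It was 6.45% for replication and mitosis, 31.6% for G1 genes, 40% for YAP/TEAD genes and 16.7% for immediate early genes. Of 31 genes for DNA replication and mitosis 2 fell and none rose, with none higher at an unadjusted p under 0.05 or in DESeq2 or limma-voom, and of 19 genes for G1 cyclins and inhibitors 4 rose and 2 fell, with Cdc25a, a phosphatase that activates cyclin-dependent kinases, at 0.45 log2 units. The replication count was 8 without GW3965 replicate 3, 4 without CT99021 replicate 3, 1 without GW3965+CT99021 replicate 2 or 3 or GW3965 replicate 1 and none without GW3965 replicate 2. Of the G1 genes 1 rose and none fell without GW3965+CT99021 replicate 1, 2 rose and none fell without its replicate 2, 2 rose and 1 fell without GW3965 replicate 2, and 2 of each were called without GW3965 replicate 1 or 3. Of 20 YAP/TEAD genes 6 fell and 2 rose, and Ctgf, a target of these factors, changed by -1.62 ± 0.37 but was not called without GW3965+CT99021 replicate 1 or GW3965 replicate 2 (highest adjusted p = 0.062). The 6 became 3 without GW3965+CT99021 replicate 2 or GW3965 replicate 1 and 2 without GW3965 replicate 2. Of 24 immediate early genes 4 fell and none rose, among them Nr4a3, a nuclear receptor (1 was higher at an unadjusted p under 0.05, and DESeq2 called 1 higher and limma-voom none), and 1 fell without GW3965+CT99021 replicate 2 and 2 without GW3965 replicate 1 or GW3965+CT99021 replicate 1. None of 24 genes for ATF4 and endoplasmic reticulum stress passed in edgeR, with a median of 0.22 that ran from -0.10 without GW3965+CT99021 replicate 3 to 0.80 without GW3965 replicate 3. At an unadjusted p under 0.05, 3 of these were higher, DESeq2 called 2 and limma-voom none, and 4 passed without GW3965 replicate 3. Without replicate 3 of every group 14 of the 24 rose and none fell, in a fit that called 4339 genes. The 24 genes summed to 2573, 2486 and 5629 CPM in GW3965 replicates 1, 2 and 3 and to 3551, 3432 and 6205 CPM in those with CT99021.

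**Figure D3:**
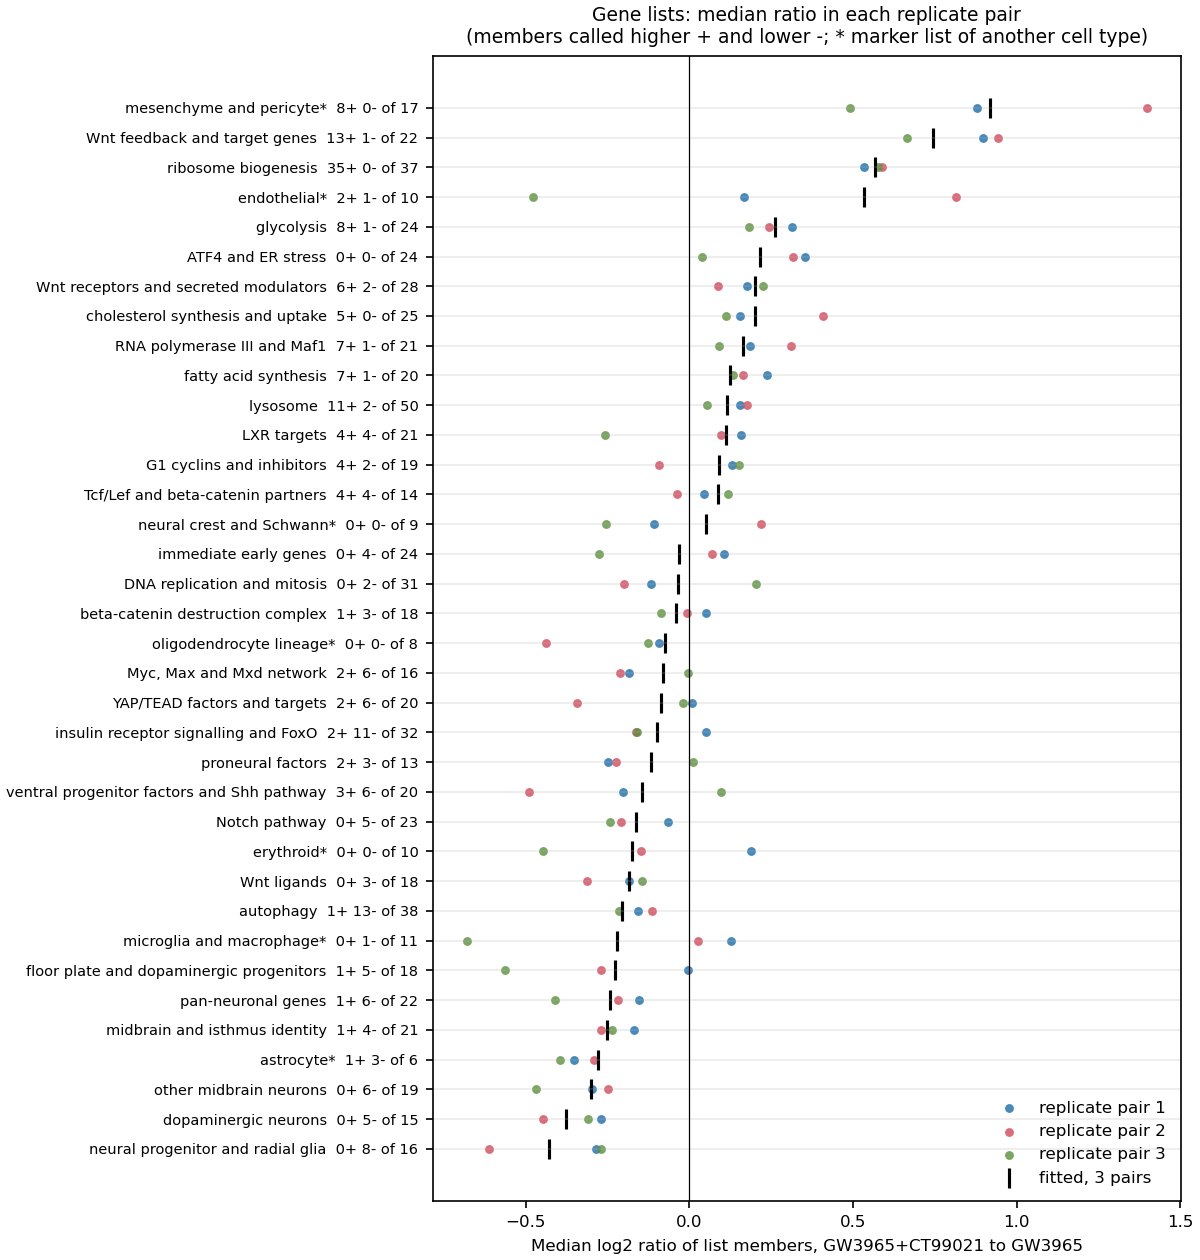
Median log2 ratio of GW3965+CT99021 to GW3965 over the tested members of each of 36 gene lists (horizontal), with 1 coloured point for each replicate pair and a black bar for the fitted value; labels give members called higher and lower. Ribosome biogenesis has its 3 pairs within 0.54 to 0.59, while the mesenchyme and pericyte list spreads from 0.49 to 1.40.

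Mesenchyme and pericyte markers, listed as a sign of cells that are not neural, also moved with the treatment. Of 17 tested, 8 rose and none fell, with a median of 0.92, and in replicate pairs 1, 2 and 3 the median was 0.88, 1.40 and 0.49. The 18 markers together summed to 1531, 349 and 2858 CPM in GW3965 replicates 1, 2 and 3 and to 2740, 1135 and 3723 CPM in those with CT99021, and 1 of the 18, Kcnj8, was at 0 counts in both replicate 2 libraries. Without GW3965+CT99021 replicate 2, 6 rose, and the 8 became 5 without GW3965 replicate 3, 4 without GW3965 replicate 1 and 3 without GW3965 replicate 2. Twist1, a transcription factor of mesenchyme, measured 8.06, 3.70 and 14.9 CPM in GW3965 replicates 1, 2 and 3 and 23.2, 12.8 and 42.5 CPM in those with CT99021. Replicate 2 was lowest in each group, so the groups overlapped. It rose 3.07-fold (1.62 ± 0.19 on the log2 scale, edgeR adjusted p = 0.00091), and Prrx1, another such factor, by 1.53 ± 0.26. The part of these cells in the other differences was not tested.

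Col9a1 and Matn4, cartilage matrix genes, were among the largest increases, and their calls rested on 1 replicate number. Col9a1, a chain of collagen IX, measured 0.783, 0.403 and 5.33 CPM in GW3965 replicates 1, 2 and 3 and 1.38, 3.18 and 183 CPM in those with CT99021. Its log2 fold change was 4.21 ± 0.95 (edgeR adjusted p = 0.013), and it was not called without GW3965+CT99021 replicate 3 or GW3965 replicate 3 (highest adjusted p = 0.2). Matn4, for the matrix protein matrilin 4, measured 0.691, 0.269 and 4.22 CPM in GW3965 replicates 1, 2 and 3 and 1.59, 1.97 and 59.0 CPM in those with CT99021, with a log2 fold change of 3.07 ± 0.55, and was not called without GW3965 replicate 3 (highest adjusted p = 0.055). Col9a2, another chain of collagen IX, measured 4.60, 1.82 and 24.6 CPM in GW3965 replicates 1, 2 and 3 and 11.2, 10.99 and 197 CPM in those with CT99021 and rose by 2.44 ± 0.43 (edgeR adjusted p = 0.0043). In all 3 genes the replicate 3 library with CT99021 was far above the other 5 libraries.

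**Figure D4:**
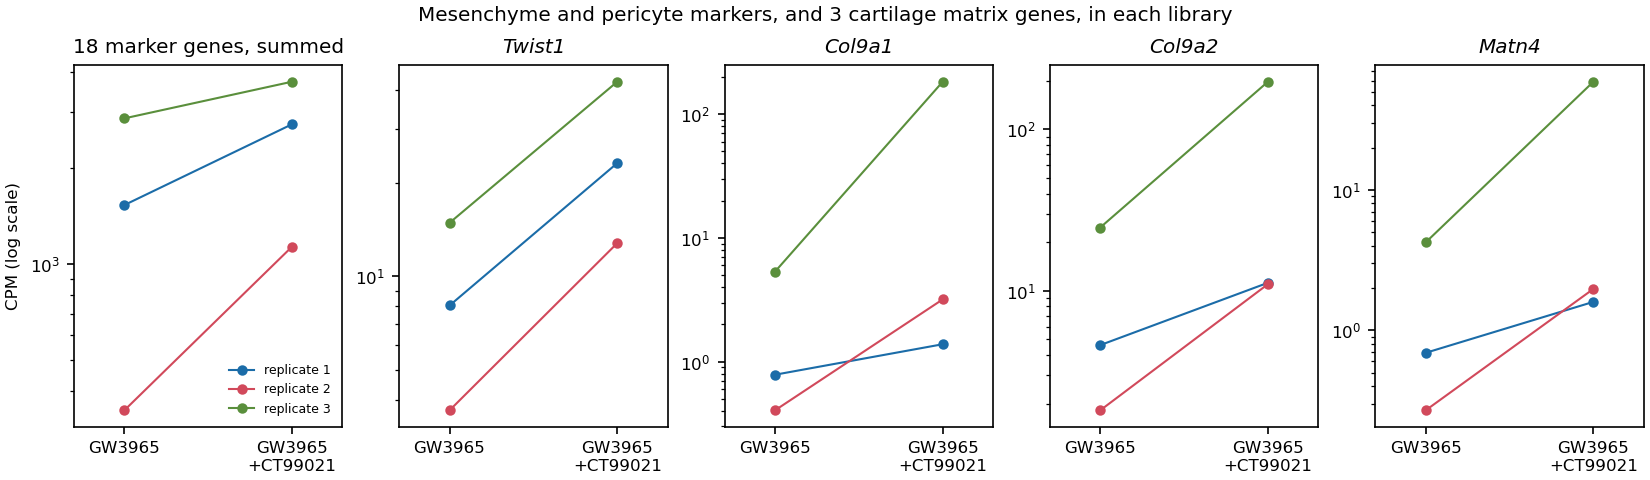
CPM (log scale, vertical) in GW3965 and GW3965+CT99021 libraries for the sum of 18 mesenchyme and pericyte markers, Twist1, Col9a1, Col9a2 and Matn4, with 1 line for each replicate number. Each line rises, and replicate 3 with CT99021 reaches 183 CPM for Col9a1.

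The calls among markers of other cell types that the cultures could hold depended on single libraries. Of 10 endothelial markers 2 rose and 1 fell, 30% beside 20.6% called among all genes. None was called without GW3965 replicate 2, and none rose and 2 fell without GW3965 replicate 1. Leaving out 1 library at a time also changed these counts to 1 and 1 (control replicate 1 or GW3965+CT99021 replicate 1), 1 and 0 (GW3965+CT99021 replicate 2) and 2 and 0 (GW3965+CT99021 replicate 3 or GW3965 replicate 3). Of 11 markers of microglia and macrophages 1 fell, which was not called without control replicate 1 or 2, any 1 of the GW3965+CT99021 libraries or GW3965 replicate 1 or 2. None of 10 erythroid, 9 neural crest or 8 oligodendrocyte markers passed in edgeR. At an unadjusted p under 0.05 there was no erythroid marker, 1 neural crest marker and 2 oligodendrocyte markers, and DESeq2 and limma-voom each called 1, an oligodendrocyte marker. Their summed levels overlapped between the groups: endothelial markers lay between 51.7 and 77.1 CPM without and 50.7 and 81.7 CPM with CT99021, and erythroid markers between 2372 and 10653 CPM without and 2824 and 8216 CPM with it. Of 6 astrocyte markers 3 fell and 1 rose, together 66.7% beside 20.6% of all genes. None of the 6 passed without GW3965+CT99021 replicate 2 or without GW3965 replicate 1 or 2.

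Several of the largest changes lay outside these lists. Tnfrsf11b, which encodes the decoy receptor osteoprotegerin, measured 1.24, 1.08 and 0.604 CPM in GW3965 replicates 1, 2 and 3 and 10.7, 11.2 and 4.50 CPM in those with CT99021 and rose 8.99-fold (log2 fold change 3.17 ± 0.59, edgeR adjusted p = 0.0055). Cldn11, a tight junction protein, and Stra6, the receptor for retinol-binding protein, rose by 2.75 ± 0.45 and 2.49 ± 0.40. Edar, the ectodysplasin receptor, rose by 2.48 ± 0.44, and Cyp1b1, a cytochrome P450, by 2.49 ± 0.53, but Cyp1b1 was not called without GW3965 replicate 1 or 2 (highest adjusted p = 0.053). Nipal3 (chromosome 4, position 135004815, minus strand), related to magnesium transporters, measured 26.7, 23.8 and 33.2 CPM in GW3965 replicates 1, 2 and 3 and 4.83, 3.56 and 6.03 CPM in those with CT99021. It fell 5.85-fold without overlap (log2 fold change -2.55 ± 0.14, edgeR adjusted p = 1.8e-05), and also passed without the replicate block. Fn3k, a kinase that repairs sugar-bound proteins, changed by -2.92 ± 0.41 from a level under 3 CPM. Six6, a homeobox factor, and Ypel4 changed by -1.94 ± 0.26 and -2.25 ± 0.30.

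The remaining genes among the 15 largest changes in each direction had few reads. Cd244, Enpep, Mcoln2 and Alx1 rose, with 11, 17, 22 and 12 counts over the 3 GW3965 libraries. Cd244 was not called without GW3965 replicate 2, Enpep without GW3965 replicate 1, Mcoln2 without GW3965+CT99021 replicate 1 or 2 or GW3965 replicate 1 or 2 and Alx1 without Control replicate 1 or 2, GW3965+CT99021 replicate 2 or 3 or GW3965 replicate 1, 2 or 3 (highest adjusted p = 0.065, 0.051, 0.12 and 0.19). Tcp11, Ankrd55, 1700084C01Rik, Gpr179, Tnfaip8l3, Meox1 and Enkur fell, by log2 fold changes of -1.96 to -2.52, and Meox1 was not called without GW3965+CT99021 replicate 3 or GW3965 replicate 1 (highest adjusted p = 0.093).

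The same inhibitor without the LXR agonist gave a similar set of calls in separate libraries. In CT99021 against control, 2470 genes passed, 1285 (8.23%) higher and 1185 (7.59%) lower. The comparisons share no library, but they share 1 fit and the replicate numbers. In both of them 1893 genes passed, 58.8% of the 3218 and 76.6% of the 2470, and all 1893 moved the same way. Of the 1325 genes called with GW3965 only, 1266 had the same sign without it. The ribosome list had 34 of 37 genes higher with CT99021 alone, and the Wnt feedback list had 11 higher and 1 lower of 22. Other lists were less alike. Of 17 mesenchyme and pericyte markers 2 were higher with CT99021 alone, with a median of 0.53 beside 0.92 under GW3965. Of 28 Wnt receptors and secreted modulators 3 were higher and 2 lower, with a median of 0.02 beside 0.20. The count of 2470 was 747 and 652 when control replicate 1 or 2 was left out, and 1075 and 1114 when CT99021 replicate 1 or 2 was.

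For several named genes the values under both conditions lay within their standard errors of each other. Notum changed by 2.68 ± 0.16 log2 units with CT99021 against control, beside 2.84 ± 0.17 under GW3965. For Axin2 the values were 1.68 ± 0.14 and 1.73 ± 0.14, for Frat1 -3.17 ± 0.45 and -3.02 ± 0.46, and for Atg13 -1.38 ± 0.09 and -1.31 ± 0.09. A test of the difference itself, the interaction of the compounds, called no gene in edgeR (smallest adjusted p = 0.9992), DESeq2 or limma-voom. At an unadjusted p under 0.05 edgeR had 523 genes (3.35% of those tested). In the 7 libraries outside the set that stood apart it called 60 genes, 5 higher and 55 lower, but only replicate 1 of GW3965+CT99021 is among the 7, so that 1 library is assumed to vary like the other groups. A test that misses its threshold does not show that the compounds act independently.

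**Figure D5:**
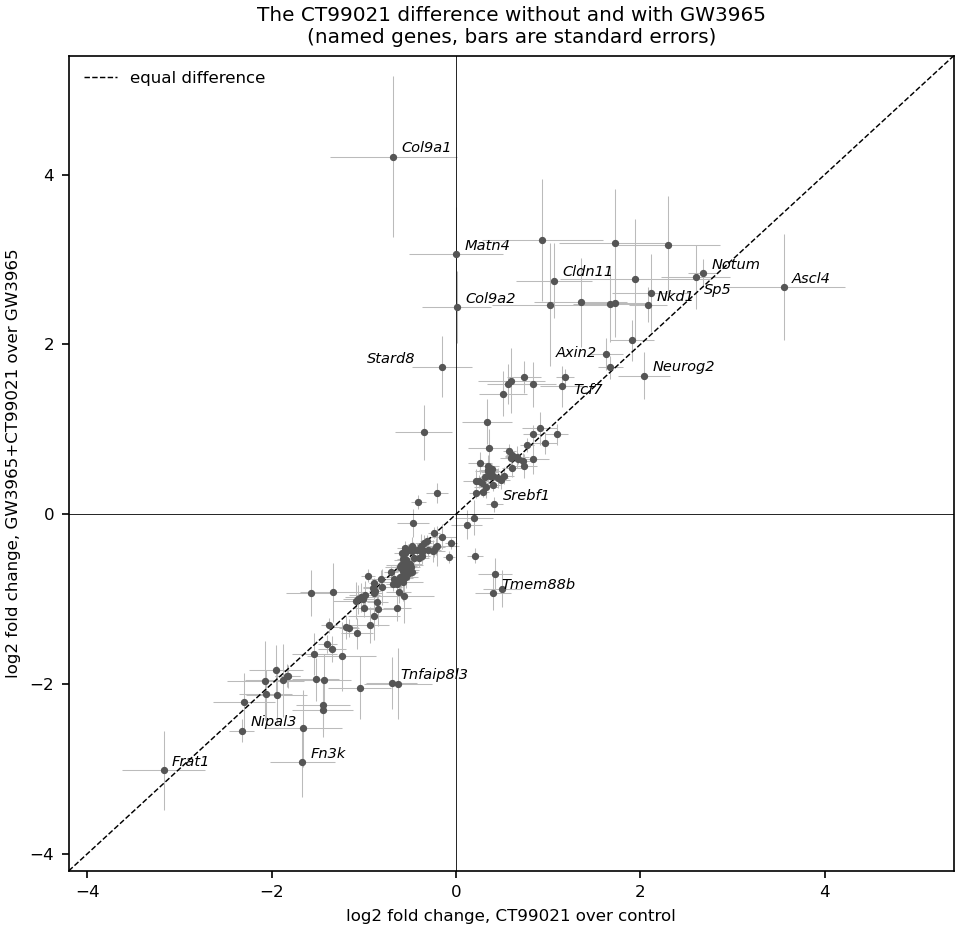
Log2 fold change of CT99021 over control (horizontal) and of GW3965+CT99021 over GW3965 (vertical) for 179 genes. The genes are those that the naming rule took, with the ones that passed without the replicate block included. Bars are standard errors, and the dashed line marks equality. Of these, 168 have the same sign on both axes, and Col9a1, Col9a2, Matn4 and Stard8 lie above the line.

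The genes with the smallest p in each direction of the interaction test did not pass it. Among them were Vps13b, Col9a2, Matn4, Col9a1 and Stard8 with the higher value under GW3965, and Tmem88b, 5830416P10Rik, Ttc5 and Car5a with the lower. Col9a2 was at 0.01 ± 0.37 without and 2.44 ± 0.43 with GW3965 (unadjusted p = 0.0014, adjusted p = 0.9992 in edgeR). Of the Wnt and lipid genes, Tcf7 rose by 1.19 ± 0.10 without and 1.61 ± 0.10 with GW3965 (unadjusted p = 0.011), and Srebf1 was at 0.42 ± 0.09 without and 0.12 ± 0.09 with GW3965 (unadjusted p = 0.035). Twist1 was at 0.74 ± 0.18 and 1.62 ± 0.19 (unadjusted p = 0.0075). The adjusted p of each was 0.9992 in the same edgeR test.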

How the data were processed

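Complementary DNA was made from 0.5 µg of RNA and sequenced as Illumina TruSeq libraries, per the labels' protocols. Raw counts of reads for each gene in all 12 libraries were deposited by the authors as a single table. The submitters' processing notes name Bowtie and mm9. Versions, counting program, annotation and the use of strand were not given in the sources used here, so overlapping genes, antisense pairs and near-identical copies are uncertain. The base from which positions are counted is not stated. The 1217 repeat rows (0.196% to 0.328% of counts in the 6 libraries) were left out.

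All 12 libraries entered 1 edgeR 4.0.16 quasi-likelihood fit (R 4.3.3) with a mean per group, the replicate number as a block (residual df = 6), trimmed mean of M values factors and the filterByExpr filter, with Benjamini-Hochberg adjusted p under 0.05. The steps were tested on simulated data. CPM used the same factors, and errors of log2 fold changes are SE. Pairing by number follows the titles and was checked on deviations from group means across genes, where all 18 pairs with the same number correlated, at 0.496 to 0.828 (0.496, 0.743 and 0.770 for the 3 pairs compared), and pairs with other numbers from -0.677 to 0.241. The labels do not say what a number marks. Libraries of 1 group differed by more than counting noise (chi-square per gene 28.2 to 136). The file header gives 9 index sequences for the 12 libraries, and each of the 3 used again marks 1 control and 1 GW3965+CT99021 library. How libraries were pooled is not given in the sources used here.

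Members and the 36 gene lists (777 entries, 771 found in the table) were chosen with earlier results of these data known. Named genes were the 15 largest increases and 15 largest decreases called at a mean of 1 CPM or more with 1 sign in all pairs, 26 genes fixed by name, up to 4 called members of each list with the smallest p (2 where none was called) and the 5 smallest p each way of the interaction. Akt2, Bmp4, Cad, Ctgf, Ctnnb1, Gsk3a, Gsk3b, Nkd2, Nop2, Rnf43, Rptor, Rrp9, Rspo2, Tnfrsf19, Wipi1, Dkk4, Kcnj8, Nop10 and Ubtf were named after their values were seen. Some genes that the rule took are not reported here. Alternatives were another normalisation, DESeq2 1.42.0, limma 3.58.1 (voom), other filters, no block, the 6 libraries alone, and leaving out libraries. The 7 libraries outside the set of 5 were added after seeing the data.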

Additional observations from a re-analysis of the deposited data

How the results depend on the processing

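Without the replicate block 12 genes passed in GW3965+CT99021 against GW3965 (1 higher and 11 lower, all 12 also called with it) and 9 in CT99021 against control, and DESeq2 without the block gave 464 and 321. Leaving out 1 library at a time gave 1396 to 3683 calls for the former, with 1396 and 1484 without GW3965 replicate 1 and 2 and 2078 and 1625 without GW3965+CT99021 replicate 1 and 2. It gave 652 to 3003 for the latter, with 747 and 652 without control replicate 1 and 2 and 1075 and 1114 without CT99021 replicate 1 and 2. Without replicate 1, 2 or 3 of every group the former had 318, 127 and 4339 calls and the latter 55, 94 and 3869. The 7 libraries outside the set of 5 gave 3642 calls, 2359 of them shared with the 3218, then 5398 calls in CT99021 against control and 60 in the interaction. Only replicate 1 of GW3965+CT99021 is among these 7, so that lone library is assumed to vary like the other groups. The interaction called 0 genes under every other alternative. With the block, other factors, DESeq2, limma-voom and other filters kept the first count within 2804 to 3697, and the 6 libraries alone gave 2428. The cause of these shifts was not tested. Of the 165 genes of the naming rule that were called, 111 passed without any 1 library and none reversed. Gene values that changed sign belonged to genes that had not passed, and the medians of 8 of the 36 lists changed sign when 1 library was left out. Abca1 was at 0.043 without GW3965+CT99021 replicate 3, 0.017 without replicate 3 of every group and 0.090 in the 7 libraries. Lmx1a was at 0.0049 and 0.0094 without GW3965+CT99021 replicate 1 and 3, 0.12 without GW3965 replicate 3 and 0.11 without replicate 3 of every group. Nr4a2 was at 0.064 and 0.081 without GW3965+CT99021 replicate 3 and replicate 3 of every group, and Ctnnb1 at -0.016 without GW3965 replicate 3. Genes near 1 CPM rest on few reads, and differences there may not be detectable at this depth.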
